A study of Mus musculus with 8 samples.

Results

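The skeletal myosin heavy chain genes were examined in newborn palate: the embryonic Myh3, the perinatal Myh8, the fast Myh2 (type IIa), Myh1 (type IIx) and Myh4 (type IIb), and the slow Myh7. Their probe sets were taken by gene symbol, keeping those annotated to one of these symbols alone. This gave 9 probe sets for 6 genes, among 18193 genes with a probe set of their own. The arrays held total RNA from tissue labelled as the posterior palate of newborn (P1) BALB/c mice. Their dams had carried an Alzet osmotic minipump under the skin during pregnancy, which released sterile physiological saline in the control group, or nicotine at 1.5, 3.0 or 4.5 mg/kg/day. Every group therefore shared the pump surgery, and each of the 4 groups had 2 arrays, titled biological replicates 1 and 2. The labels give 2 newborn pups in the extraction step without saying whether RNA was pooled or which litters were used, so p-values measure the spread between these samples.

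Myosin heavy chain is the motor protein of the thick filament: its head binds actin and splits ATP, and its rod packs into the filament. Skeletal muscle fibres differ in which heavy chain gene they use, and this sets much of their speed of contraction. In mouse muscle the embryonic and perinatal forms dominate before birth and give way to the fast adult forms in the weeks after it, while the slow form is present early and is also the main heavy chain of the fetal heart ventricle. The soft palate, which forms the rear of the palate, contains skeletal muscle.

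On the reference genome the genes lie in a row on chromosome 11 in the order Myh3, Myh2, Myh1, Myh4 and Myh8, followed by Myh13 of eye muscle, and Myh7 lies next to the heart gene Myh6 on chromosome 14. Upstream sequence is shown for Myh1, Myh2, Myh4 and Myh8, neighbours in that row whose levels are compared below, because they hold the same stretch of bases. The 250 bases before each start site come from RefSeq (GRCm38.p6, plus strand for each of these genes) at chr11:67199852-67200101 for Myh1, chr11:67170777-67171026 for Myh2, chr11:67237562-67237811 for Myh4 and chr11:67276874-67277123 for Myh8. Capitals mark the longest run of letters that these 4 windows have in common.
Myh1: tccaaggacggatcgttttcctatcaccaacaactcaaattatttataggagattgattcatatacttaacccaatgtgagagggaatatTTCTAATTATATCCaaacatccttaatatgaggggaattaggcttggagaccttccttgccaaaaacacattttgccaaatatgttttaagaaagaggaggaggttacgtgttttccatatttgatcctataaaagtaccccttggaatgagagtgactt
Myh2: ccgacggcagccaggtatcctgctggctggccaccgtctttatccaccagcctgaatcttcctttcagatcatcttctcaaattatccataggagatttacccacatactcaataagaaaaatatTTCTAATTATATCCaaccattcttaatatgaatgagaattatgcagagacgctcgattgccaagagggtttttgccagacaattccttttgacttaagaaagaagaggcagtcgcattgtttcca
Myh4: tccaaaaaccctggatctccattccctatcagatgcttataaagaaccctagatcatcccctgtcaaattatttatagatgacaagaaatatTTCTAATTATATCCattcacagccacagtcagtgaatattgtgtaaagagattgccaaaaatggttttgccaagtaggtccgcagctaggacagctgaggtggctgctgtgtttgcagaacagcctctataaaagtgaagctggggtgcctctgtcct
Myh8: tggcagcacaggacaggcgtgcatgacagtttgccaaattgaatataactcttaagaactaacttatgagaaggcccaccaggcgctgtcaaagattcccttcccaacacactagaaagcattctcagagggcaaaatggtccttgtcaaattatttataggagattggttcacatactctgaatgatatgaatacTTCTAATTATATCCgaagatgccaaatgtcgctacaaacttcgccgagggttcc

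The run in capitals, TTCTAATTATATCC, has 14 bases and begins 160 bases upstream of the start in Myh1, 125 in Myh2, 158 in Myh4 and 54 in Myh8. The run was chosen as common to these 4 windows, so that they hold it was fixed in advance. Among 32851 upstream windows of the same length it was found, on either strand, in these 4 alone (0.0122%). It was not in the windows of Myh3 or Myh7. The TATA box, searched as TATAAA on both strands, occurred in the windows of Myh1, Myh3, Myh4 and Myh8 and in 12.4% of all windows. The E-box CANNTG, the site type of the myogenic regulators, occurred in those of Myh3, Myh4, Myh7 and Myh8 and in 66.2% of all windows. A CArG box was found in that of Myh4 and in 1.47% of all windows, and a strict MEF2 site in no member's window and in 0.508% of all. These are matches of letters, and the windows of Myh1 and Myh2 without an E-box say nothing about sites elsewhere.

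The deposited values were linear intensities with array medians of 20.7 to 25.4. The tissue was checked against marker genes, counted as present above the 60th percentile of all probe sets. All 12 general skeletal muscle genes were present on every array, and 3 or 4 of 10 genes that pattern the palate and jaw. Stomach genes were present for 1 or 2 of 10 on each nicotine array, against 8 and 9 on the saline arrays. Intestine genes were present for 1 to 6 of 11 on the nicotine arrays, against 10 on each saline array. All 10 liver genes were present on nicotine 1.5 replicate 2 and on both saline arrays, and 0 on the other 5 arrays. Lung genes were present for 6 to 9 of 11 on nicotine 1.5 replicate 2 and on the arrays of 3.0 and 4.5 mg/kg/day, and for at most 2 on the other 3 arrays. All 12 cartilage genes were present on nicotine 1.5 replicate 1, against 2 to 8 elsewhere. The actin 3' to 5' signal ratio, a sign of RNA integrity, was 0.95 to 1.39 on the nicotine arrays and 1.65 and 1.74 on the saline arrays. The part of tissue makeup and RNA integrity in the values below was not tested. In bulk tissue, fewer muscle fibres and less RNA per fibre cannot be told apart.

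Averaged over the doses, each of the 6 myosin heavy chain genes was higher in nicotine palates than in saline palates, by 0.37 to 1.27 on the log2 scale, but none passed the test. Fold changes were fitted on log2(intensity + 16), which understates the change of dim genes, with limma over all 8 arrays and Benjamini-Hochberg adjustment over 13592 genes, and a gene counted as called at an adjusted p under 0.05. All 6 genes passed the filter on low levels. For the mean of the doses against saline 0 of 6 members were called by limma, 3 had an unadjusted p under 0.05 (Myh4, Myh7 and Myh1), and 10.2% of all genes tested were called. Against saline 0 of 6 were called at 1.5 mg/kg/day (background 2.48%, 1 member with unadjusted p under 0.05), 0 of 6 at 3.0 (3.72%, 2 members) and 0 of 6 at 4.5 (6.87%, 1 member). The median change of the members for the mean of the doses was 0.73, against 0.07 over all genes tested, of which 55.9% were above 0. Without saline replicate 2 and nicotine 1.5 replicate 2, the 2 arrays highest in liver genes, the change over the doses was 0.15 for Myh1, -0.29 for Myh2, 0.12 for Myh3, 0.65 for Myh4, 0.49 for Myh7 and 0.15 for Myh8 (adjusted p from 0.185 to 0.797). At 3 of the 6 genes, Myh4, Myh7 and Myh8, all 6 nicotine arrays lay above both saline arrays after normalization, as did 16.8% of all genes tested.

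**Figure D1:**
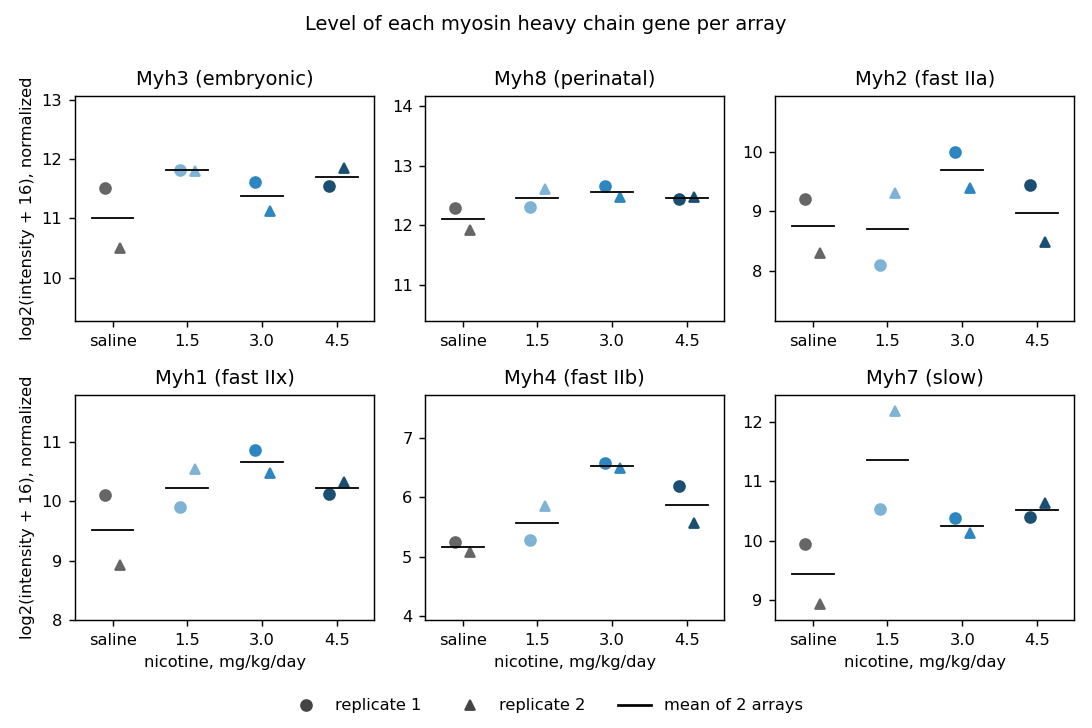
Normalized log2(intensity + 16) of each myosin heavy chain gene (vertical axis) on each of the 8 arrays, by group (horizontal axis, saline and nicotine dose in mg/kg/day). Circles and triangles are replicates 1 and 2, and lines are group means. Saline replicate 2 is the lowest array for Myh1, Myh3, Myh4, Myh7 and Myh8, and nicotine 1.5 replicate 1 is the lowest for Myh2.

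Myh3, the embryonic heavy chain, had intensities of 2763 and 1400 in saline palates, 3397 and 3674 at 1.5, 3404 and 2384 at 3.0, and 3335 and 3527 at 4.5 mg/kg/day. Saline replicate 2 was the lowest array by a wide margin, and saline replicate 1 lay above 3.0 replicate 2, so that the nicotine and saline arrays overlapped. The log2 change was 0.81 ± 0.35 (SE) at 1.5, 0.37 ± 0.35 at 3.0 and 0.69 ± 0.35 at 4.5, with limma adjusted p-values of 0.247, 0.554 and 0.235. For the mean of the doses it was 0.62 ± 0.29, with a 95% interval of -0.06 to 1.30 (adjusted p = 0.192). Much of this rested on saline replicate 2, since the change over the doses was 0.11 without it, with 0.30 at 1.5, -0.14 at 3.0 and 0.18 at 4.5. Without saline replicate 1 the change was 1.13 over the doses, 1.32 at 1.5 and 1.20 at 4.5. That fit has the lowest array as its lone saline array, and the spread between the saline arrays no longer counts in it.

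Myh8, the perinatal heavy chain that is typical of late fetal and newborn muscle, had intensities of 4813 and 3639 in saline palates, 4883 and 6263 at 1.5, 6829 and 5747 at 3.0, and 5695 and 5580 at 4.5 mg/kg/day. Every nicotine array was above both saline arrays, 1.5 replicate 1 by the least. Its log2 change was similar in size at each dose, 0.35 ± 0.21 at 1.5, 0.46 ± 0.21 at 3.0 and 0.35 ± 0.21 at 4.5 (limma adjusted p = 0.365, 0.219 and 0.298). For the mean of the doses it was 0.39 ± 0.17, with an interval of -0.01 to 0.79 (adjusted p = 0.170). Without saline replicate 2 the values were 0.16 at 1.5, 0.27 at 3.0, 0.16 at 4.5 and 0.20 over the doses together. The Myh8 probe set was among the brightest on the chip, ranking between 7 and 38 on the nicotine arrays and 41 and 147 on the saline arrays out of 45101 probe sets. Whether signal near the top of the range was compressed was not tested.

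Myh2, the heavy chain of fast oxidative type IIa fibres, had intensities of 580 and 317 in saline palates, 240 and 609 at 1.5, 1090 and 675 at 3.0, and 704 and 323 at 4.5 mg/kg/day. The arrays of each group were far apart, by more than 2-fold at 1.5 and 4.5 mg/kg/day, and only at 3.0 did both nicotine arrays exceed both saline arrays. The log2 change was -0.05 ± 0.53 at 1.5, 0.94 ± 0.53 at 3.0 and 0.21 ± 0.53 at 4.5 (limma adjusted p = 0.973, 0.318 and 0.818). Over the doses it was 0.37 ± 0.43, with an interval of -0.66 to 1.40 (adjusted p = 0.598), and the value was -0.09 without saline replicate 2. The sign at single doses also turned with 1 array: the change at 1.5 was 0.41 without saline replicate 1 and 0.56 without nicotine 1.5 replicate 1, and that at 4.5 was -0.25 without saline replicate 2 and -0.27 without nicotine 4.5 replicate 1.

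Myh1, the heavy chain of fast type IIx fibres, was read by 3 probe sets. The brightest, 1427868_x_at, which stood for the gene, had intensities of 1108 and 501 in saline palates, 814 and 1467 at 1.5, 2084 and 1477 at 3.0, and 1151 and 1233 at 4.5 mg/kg/day. The arrays of 3.0 and 4.5 mg/kg/day were above both saline arrays, and 1.5 replicate 1 was between the saline arrays. Its log2 change was 0.71 ± 0.41 at 1.5, 1.15 ± 0.41 at 3.0 and 0.70 ± 0.41 at 4.5 (limma adjusted p = 0.366, 0.153 and 0.298), and 0.85 ± 0.34 for the mean of the doses (interval 0.05 to 1.65, adjusted p = 0.142). Without saline replicate 1 the values were 1.74 at 3.0 and 1.44 over the doses together, with the lowest array as the lone saline array. Without saline replicate 2 they were 0.11 at 1.5, 0.55 at 3.0, 0.11 at 4.5 and 0.26 over the doses together.

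The second Myh1 probe set, 1427520_a_at, had intensities of 949 and 456 in saline palates, 297 and 1065 at 1.5, 1723 and 1180 at 3.0, and 863 and 795 at 4.5 mg/kg/day. It parted from the first on nicotine 1.5 replicate 1, where it was the lowest array of all, and at 1.5 mg/kg/day its change was -0.08 ± 0.57, opposite in sign to that of the first. At 3.0 mg/kg/day the 2 probe sets gave 1.04 ± 0.57 and 1.15 ± 0.40 when fitted as separate probe sets. At 4.5 the second gave 0.37 ± 0.57, against 0.70 ± 0.40 for the first, and for the mean of the doses 0.44 ± 0.47 (limma adjusted p = 0.547), much less than the 0.85 ± 0.33 of the first. Probe sets marked x on this chip can bind related transcripts, and the fast heavy chains are close relatives in sequence. A further one, 1452465_at, was at background, with at most 5.01 on any array.

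Myh4, the heavy chain of the fastest type IIb fibres, was the dimmest member, with intensities of 25.1 and 17.7 in saline palates, 22.6 and 45.9 at 1.5, 77.8 and 71.2 at 3.0, and 52.4 and 29.2 at 4.5 mg/kg/day. Both arrays at 3.0 were above all others, and those at 1.5 overlapped saline before normalization. The log2 change was 0.41 ± 0.28 at 1.5, 1.37 ± 0.28 at 3.0 and 0.71 ± 0.28 at 4.5 (limma adjusted p = 0.441, 0.0502 and 0.151). For the mean of the doses it was 0.83 ± 0.23, with an interval of 0.29 to 1.37 (adjusted p = 0.0639). The value at 3.0 missed the threshold by little and passed it in 8 of 20 alternatives, at adjusted p-values between 0.0232 and 0.279 over all of them; the lowest averages in a second probe set that was at background in saline palates. With an added constant of 1 or 64 the change at 3.0 was 1.897 or 0.745. The change at 1.5 was 0.11 without nicotine 1.5 replicate 2, and that at 4.5 was 0.40 without nicotine 4.5 replicate 1. Leaving out either array of 1.5 mg/kg/day was among the alternatives that passed at 3.0, but the spread between these arrays then no longer counts. Without replicate 1 of that dose the mean of the doses was 0.93.

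A second Myh4 probe set, 1458368_at, was below the level filter, at 3.02 and 3.56 in saline palates, 7.75 and 9.08 at 1.5, 18.3 and 13.0 at 3.0, and 12.3 and 29.3 at 4.5 mg/kg/day. On this probe set every nicotine array was above both saline arrays, as for 16.8% of all genes tested after normalization. The highest array was 4.5 replicate 2, on which the first probe set was low. Its saline values were at background, so that no fold is given from it.

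Markers of brown fat, a tissue that burns lipid for warmth, varied between the same groups as Myh4. Of 10 such genes 6 and 5 were present in saline palates, 6 and 8 at 1.5, 9 and 9 at 3.0, and 8 and 8 at 4.5 mg/kg/day. Their summed intensity was 1968 to 5722 in saline palates, 4218 to 8524 at 1.5, 21642 to 24022 at 3.0, and 9564 to 21713 at 4.5. The group means of Myh4 and of this sum were both highest at 3.0, and their relation was not tested.

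Myh7, the heavy chain of slow fibres and of the heart ventricle, had intensities of 985 and 504 in saline palates, 1250 and 4741 at 1.5, 1455 and 1156 at 3.0, and 1446 and 1508 at 4.5 mg/kg/day. Every nicotine array was above both saline arrays, and 1.5 replicate 2 stood more than 3-fold above any other. The log2 change was 1.92 ± 0.55 at 1.5, 0.82 ± 0.55 at 3.0 and 1.08 ± 0.55 at 4.5 (limma adjusted p = 0.117, 0.400 and 0.239). For the mean of the doses it was 1.27 ± 0.45, with an interval of 0.20 to 2.34 (adjusted p = 0.114).

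Heart genes were high on the same array. Myh6, the other heart heavy chain, had intensities of 17.1 and 11.4 in saline palates, 25.2 and 3844 at 1.5, 78.6 and 85.0 at 3.0, and 85.4 and 74.0 at 4.5 mg/kg/day. Of 14 heart genes 12 were present on nicotine 1.5 replicate 2, against 2 to 6 on each of the other arrays. The summed intensity of the list was 1883 to 3625 in saline palates, 4530 and 14766 at 1.5, 5077 to 5364 at 3.0, and 5091 to 6496 at 4.5, most of it from Tnnt2 and Sln, which developing skeletal muscle also expresses. Bmp10 of the atria was below the level filter, at most 3.66 on any array. Myl7 was at 23.4 and 14.5 in saline palates, 9.92 and 485 at 1.5, and 34.6 to 97.9 at 3.0 and 4.5. Nppa, the atrial natriuretic peptide, was at 289.5 on nicotine 1.5 replicate 2 and at 3.72 to 44.8 elsewhere. Tnni3, Mybpc3, Ryr2 and Nppb were at most 48.0, 21.1, 27.8 and 14.4 elsewhere, and at 585, 584, 430 and 234 on nicotine 1.5 replicate 2. Without that array the Myh7 change was 1.09 at 1.5 mg/kg/day and 0.997 over the doses together, about the size seen at 4.5. Without nicotine 1.5 replicate 1 in its place the mean of the doses was 1.55, and without saline replicate 2 it was 0.77. Without saline replicate 2 the changes at 3.0 and 4.5 were 0.31 and 0.58. Myh6 itself was at 2.43 ± 1.44 for the mean of the doses with all arrays (limma adjusted p = 0.292). It was at 1.35 without nicotine 1.5 replicate 2 and at 3.51 without nicotine 1.5 replicate 1. The Myh6 change was thus smaller, but still above 0, without the array high in heart genes. Leaving out either replicate leaves a lone array at that dose. The distance between the 2 arrays then no longer counts as spread, so no test of either fit is given.

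**Figure D2:**
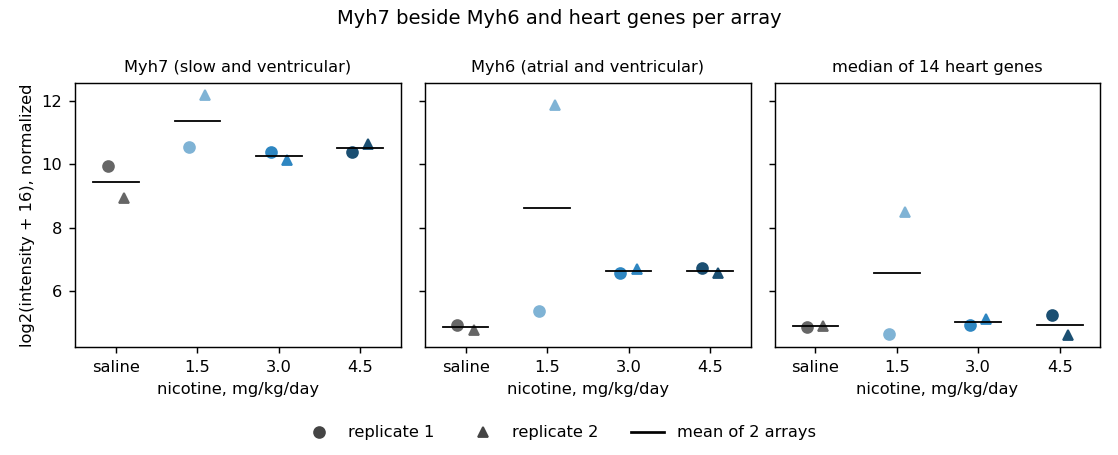
Normalized log2(intensity + 16) of Myh7, of Myh6 and the median of 14 heart genes (vertical axis) on each array, by group (horizontal axis, saline and nicotine dose in mg/kg/day). Circles and triangles are replicates 1 and 2, and lines are group means. Nicotine 1.5 replicate 2 is the highest array in all 3 panels, at 12.18 for Myh7 and 11.87 for Myh6.

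The order of the dose groups differed between genes. By mean log2 level Myh1, Myh2, Myh4 and Myh8 were highest at 3.0 mg/kg/day, and Myh3 and Myh7 were highest at 1.5. Saline had the lowest mean for every gene but Myh2, for which it lay 0.05 above 1.5. Between doses no member differed past the test. Comparing 3.0 with 1.5 mg/kg/day, Myh2 was at 0.99 ± 0.53, Myh4 at 0.96 ± 0.28 and Myh7 at -1.11 ± 0.55 (limma adjusted p = 0.535, 0.354 and 0.505), and 0 of 6 members were called (background 0%, with 1472 genes at an unadjusted p under 0.05). Comparing 4.5 with 3.0, and 4.5 with 1.5, again 0 of 6 members and 0% of all genes were called, with 536 and 963 genes at an unadjusted p under 0.05. No member was called for a slope over dose (0 of 6, background 0.802%). The slopes lay between 0.08 ± 0.05 for Myh8 and 0.21 ± 0.09 log2 units per mg/kg/day for Myh4 (adjusted p = 0.310 and 0.179), and Myh4 alone had an unadjusted p under 0.05. For any difference among the 4 groups the count was also 0 of 6 (background 1.94%), with Myh4 at an adjusted p of 0.121.

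**Figure D3:**
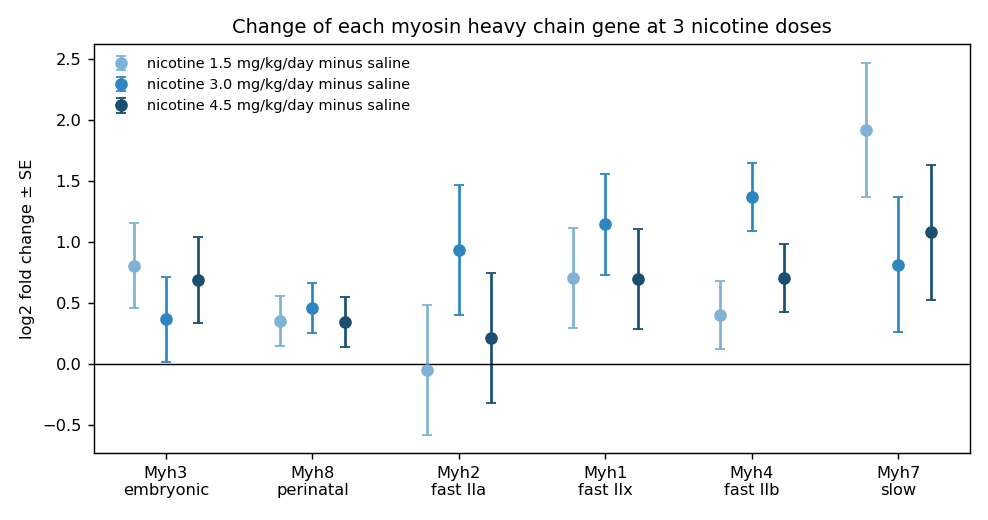
Log2 fold change against saline (vertical axis) of each myosin heavy chain gene (horizontal axis) at 3 nicotine doses, from limma over all 8 arrays. Points are estimates and bars are SE. Of 18 estimates 17 are above 0, Myh2 at 1.5 mg/kg/day being the exception at -0.05, and none passed the test.

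The balance of isoforms was read as the difference of 2 genes' log2 levels within an array, set to 0 at the saline mean. Such a ratio cancels the amount of muscle shared by both genes only if both signals follow that amount in proportion. The constant added before taking logs damps the dim Myh4, so in Myh4 over Myh8 the amount of muscle need not cancel. Compression of the bright Myh8 signal, which was not tested, would have a like effect on every ratio with Myh8. The absolute size of a ratio has no meaning between probe sets. Nor does a ratio cancel heart signal in Myh7, which the heart ventricle also uses. Myh8 over Myh3, perinatal over embryonic, averaged 0.00 ± 0.45 (SD, n = 2) in saline, -0.45 ± 0.22 at 1.5, 0.10 ± 0.22 at 3.0 and -0.34 ± 0.18 at 4.5 mg/kg/day. The nicotine and saline arrays overlapped, and the groups followed no order of dose. Of the fast adult forms over perinatal Myh8, Myh1 averaged 0.35 ± 0.25 at 1.5, 0.68 ± 0.15 at 3.0 and 0.35 ± 0.11 at 4.5, against a saline spread of 0.57. Myh2 over Myh8 was at -0.40 ± 0.65, 0.48 ± 0.30 and -0.14 ± 0.70 in the same dose order, against a saline spread of 0.37.

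Myh4 over Myh8 was at -0.11 and 0.11 in saline palates, -0.10 and 0.20 at 1.5, 0.86 and 0.95 at 3.0, and 0.69 and 0.03 at 4.5 mg/kg/day. It was highest at 3.0, and nicotine 4.5 replicate 2 lay with the saline arrays. The slow form was higher relative to both developmental forms on every nicotine array than on either saline array. The margin was thin over Myh8, where the lowest nicotine array was at 0.319 and the highest saline array at 0.311, and wider over Myh3, at 0.275 and 0.007. The same held for 1.02% of all genes set over Myh3 and for 3.56% of all genes set over Myh8. Myh7 over Myh3 was at 0.28 and 1.95 at 1.5, 0.33 and 0.57 at 3.0 and 0.41 and 0.37 at 4.5, against -0.01 and 0.01 in saline palates. Myh7 over Myh8 was at 0.89 and 2.25, 0.39 and 0.32, and 0.62 and 0.84 in the same order, against 0.31 and -0.31 in saline palates. In both, the highest value was that of nicotine 1.5 replicate 2, the array high in heart genes, and the other nicotine values showed no steady order of dose. The heart gene Myh6 was also higher at 3.0 and 4.5 mg/kg/day, at 74.0 to 85.4, than in saline palates, at 17.1 and 11.4. The part of heart signal in these ratios was not tested.

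The slope of each ratio over dose was tested with an exact two-sided permutation test over the 2520 ways of placing 8 arrays in the 4 groups, whose smallest possible p is 0.000794. Among the 6 ratios the smallest p was that of Myh4 over Myh8 (slope 0.13 log2 units per mg/kg/day, exact permutation p = 0.162, 0.759 adjusted over the 6 ratios), followed by Myh1 over Myh8 (0.09, p = 0.253). The other 4 slopes lay between -0.03 and 0.07, with p from 0.667 to 0.852. A shift of isoform balance with dose was thus not detected with 2 arrays per group. Without nicotine 4.5 replicate 2 the slope of Myh4 over Myh8 was 0.22 (exact permutation p = 0.0381), and without nicotine 1.5 replicate 2 that of Myh7 over Myh3 was 0.09 (p = 0.0254), both before adjustment.

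**Figure D4:**
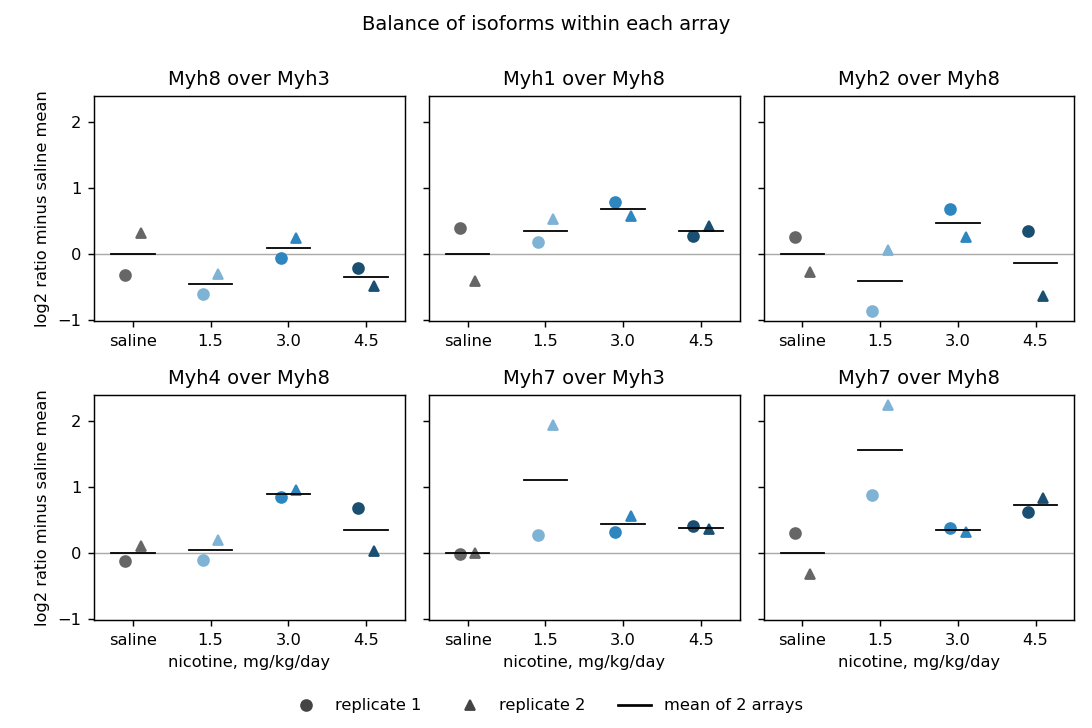
Log2 ratio of the first gene over the second within each array, minus its saline mean (vertical axis), by group (horizontal axis, saline and nicotine dose in mg/kg/day). Circles and triangles are replicates 1 and 2, and lines are group means. Myh4 over Myh8 reaches 0.86 and 0.95 at 3.0, and Myh7 over Myh8 reaches 2.25 on nicotine 1.5 replicate 2.

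The members were also set against the muscle genes of the same array, by subtracting the median log2 level of the 12 general skeletal muscle genes, a choice made after the values were seen. These genes had a median of 10.36 to 11.04 on the nicotine arrays, against 10.11 and 9.15 in saline palates, and 7 of the 12 rose with the mean of the doses, as did 4.75% of all genes tested. That count was 2 without saline replicate 2, without either array of 3.0 or without either array of 4.5 mg/kg/day, and 3 without nicotine 1.5 replicate 2. Ryr1, the calcium release channel, rose by 1.62 ± 0.18 and Cacna1s, its voltage sensor, by 1.61 ± 0.18 (limma adjusted p = 0.00478 and 0.00519). On that scale Myh3 was at -0.60 to -0.20 on the nicotine arrays, all below the saline arrays at -0.03 and 0.03. Myh8 was at -1.04 to -0.35 on the nicotine arrays, against -0.29 and 0.29 in saline palates. Such a separation is no sign of a change in these genes, since 50.1% of all genes tested also lay below both saline arrays on every nicotine array once the muscle median was subtracted. Myh1 and Myh4 were above their saline mean on both arrays at 3.0 (0.28 and 0.23 for Myh1, 0.35 and 0.60 for Myh4) and below it at 1.5, while at 4.5 Myh1 was at -0.14 and -0.61 and Myh4 at 0.28 and -1.01. The saline arrays themselves were at 0.11 and -0.11 for Myh1 and -0.40 and 0.40 for Myh4, so that Myh4 at 3.0 overlapped saline. Myh2 was lowest on nicotine 1.5 replicate 1, at -1.69, and nicotine 4.5 replicate 2, at -1.67. Myh7 stayed between -0.20 and 0.21 on all arrays but nicotine 1.5 replicate 2, at 1.58.

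**Figure D5:**
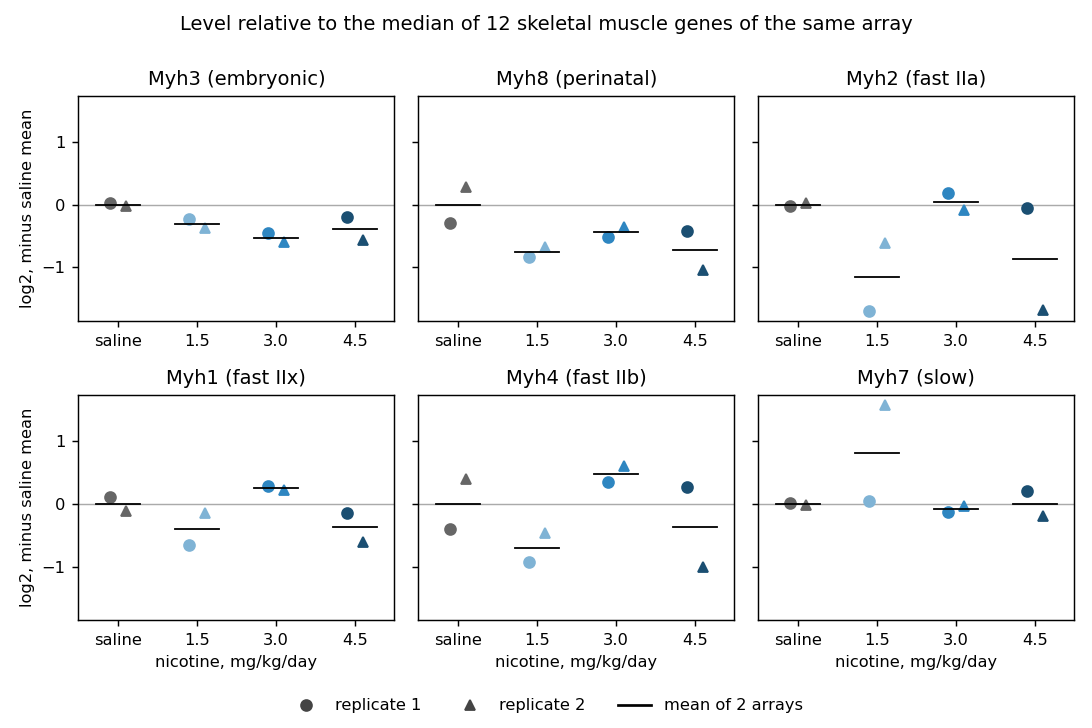
Log2 level of each myosin heavy chain gene minus the median of 12 skeletal muscle genes of the same array, set to 0 at the saline mean (vertical axis), by group (horizontal axis, saline and nicotine dose in mg/kg/day). Circles and triangles are replicates 1 and 2, and lines are group means. Myh3 lies below 0 on all 6 nicotine arrays, at -0.60 to -0.20.

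Genes that work with the heavy chains were compared over the mean of the doses, where the median over all genes tested was 0.07. Of all genes tested 4.75% rose and 5.4% fell. Myosin light chains, the small subunits of the motor, were listed together with the kinase Mylk2. This list had a median of 0.99 over 6 tested genes, and 0 of 6 rose. Myl3, the slow and ventricular light chain, was at 1.87 ± 0.49 (limma adjusted p = 0.0560), Myl4, the embryonic and atrial one, at 0.93 ± 0.33, Myl1 of fast fibres at 0.40 ± 0.14, and Mylk2, the kinase of the fast regulatory light chain, at 1.44 ± 0.48. Of 7 genes of the thick filament and its M-band 1 rose, with a median of 1.004: Mybph, a myosin-binding protein, rose by 1.33 ± 0.30 (adjusted p = 0.0383). The M-band proteins Myom1 and Myom3 were at 1.06 ± 0.29 and 1.004 ± 0.28 (adjusted p = 0.0612 and 0.0631), and Mybpc2, the fast myosin-binding protein C, at 1.21 ± 0.38 (adjusted p = 0.0888).

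Of 8 genes of myosin folding and turnover 3 rose, against 4.75% of all genes tested, with a median of 1.28. They were Smyd1, a methyltransferase needed for sarcomere assembly, at 1.39 ± 0.23 (limma adjusted p = 0.0174), Unc45b, the chaperone that folds the myosin head in muscle, at 1.34 ± 0.29 (adjusted p = 0.0349), and Trim54, a muscle ring-finger protein, at 1.54 ± 0.32 (adjusted p = 0.0323). Hsp90aa1, the partner chaperone of Unc45b, was at -0.52 ± 0.13 (adjusted p = 0.0523). Whether these genes changed more than the heavy chains they serve was not tested.

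Genes that rose were found among the partners of both slow and fast fibres. Of 6 slow partners 3 rose and 1 fell, against 4.75% and 5.4% of all genes tested, with a median of 1.04: the troponins Tnni1 at 1.53 ± 0.25, Tnnt1 at 0.86 ± 0.16 and Tnnc1 at 1.10 ± 0.25 rose, and the tropomyosin Tpm3 fell by 0.69 (limma adjusted p from 0.0173 to 0.0437). Of 8 fast partners 3 rose, with a median of 0.86: Casq1, the calcium store protein, at 1.14 ± 0.18, Atp2a1, the fast calcium pump, at 0.99 ± 0.16, and Actn3, the fast Z-disc actinin, at 1.37 ± 0.23 (adjusted p from 0.0153 to 0.0193). Pvalb, the calcium buffer of fast fibres, was at 1.92 ± 0.49 (adjusted p = 0.0534). The difference between the lists was not tested. Nicotine 1.5 replicate 2, the array high in heart genes, was also the highest for Tnni1, Tnnc1 and the calcium pump Atp2a2 of slow and heart muscle, at 2285, 2378 and 3380, against at most 1347, 1214 and 1892 on any other array. Without it Tnni1, Tnnt1 and Tnnc1 were at 1.44, 0.85 and 0.97. Without both arrays highest in liver genes these 3 troponins were lower, at 1.03, 0.63 and 0.67, and Tpm3 was at -0.72. For Tpm3, which is also widely expressed outside muscle, the mean of its probe sets gave 0.20 with the opposite sign.

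Among 14 tested regulators of fibre type 2 rose and 1 fell, against 4.75% and 5.4% of all genes tested, with a median of 0.64. Nfix, which drives the switch from embryonic to fetal muscle genes, rose by 1.12 ± 0.24 (limma adjusted p = 0.0340) and Tbx15, found in fast glycolytic fibres, by 1.59 ± 0.35 (adjusted p = 0.0384), while Prox1, a regulator of slow fibres that liver also expresses, fell by 0.91 (adjusted p = 0.0408). With an added constant of 64 in place of 16, however, Prox1 was at -0.41 (limma adjusted p = 0.0710). With 1 it was at -0.14 (adjusted p = 0.664), but the probe set that stands for a gene was chosen anew at each constant. The Prox1 probe set used with 16 was at 29.1 and 52.3 in saline palates and at 8.77 to 14.6 on the nicotine arrays. A smaller constant widens that gap, so the value with 1 came from another probe set of the gene. Vgll2, a muscle cofactor of TEAD proteins, was at 1.35 ± 0.34 (adjusted p = 0.0525). Brown fat shares Tbx15, and the brown fat and liver markers given above differed between the same groups, as did the actin ratio. The calls of all these partners and regulators depended on single arrays: of the 14 partner and regulator genes that had risen or fallen, 0 were called by limma without saline replicate 2, without nicotine 3.0 replicate 1 or without nicotine 3.0 replicate 2, with adjusted p-values from 0.0535 to 0.176. Without saline replicate 2 Mybph, Nfix, Tbx15 and Prox1 were at 0.83, 0.72, 1.03 and -0.57, more than 1.5 times smaller than with all arrays.

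The remaining myosin heavy chains measured were not called. Myh11 of smooth muscle was at -1.78 ± 0.53 for the mean of the doses (limma adjusted p = 0.0761), with 187 to 588 on the nicotine arrays of 1.5, 128 to 202 on those of 3.0 and 4.5, and 1174 and 479 in saline palates. The non-muscle forms Myh9, Myh10 and Myh14 were at -0.19 ± 0.14, -0.22 ± 0.14 and -0.64 ± 0.63, and Myh7b at 0.12 ± 0.21 (adjusted p from 0.329 to 0.712). Without saline replicate 1 Myh11 was at -1.09, and without nicotine 1.5 replicate 1 it was at -2.08. Other smooth muscle genes differed between the same groups: Cnn1 fell by 2.92 (adjusted p = 0.0292), Actg2 was at -3.05 ± 0.81 and Tagln at -1.61 ± 0.46. Des, which is also in the skeletal muscle list, went the other way and rose by 0.79 (adjusted p = 0.0351). Of the 9 genes 1 rose, 1 fell and 2 were above 0, where 4.75% of all genes tested rose and 5.4% fell. Of 9 smooth muscle genes 6 to 8 were present on the nicotine arrays, against 9 and 8 in saline palates, with summed intensities of 4507 to 7925 on the nicotine arrays, against 13722 and 7094; their part in the Myh11 value was not tested. In addition, without saline replicate 1 Myh14 was at 0.04.

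For each member the 3 genes with the most similar log2 levels over the 8 arrays were listed, by Pearson correlation and as a description, since all pairs share the same arrays and tissue makeup. Myh1 was most like Mamdc2 (r = 0.991), Myh8 (0.980) and Zfp111 (0.975), and Myh8 most like Eml4 (0.983), Myh1 and Mamdc2 (0.968). The nearest to Myh2 were Mdh2, a mitochondrial malate dehydrogenase, at 0.968, Cox5a, a cytochrome oxidase subunit, at 0.944, and Heatr5b at 0.942. Those nearest to Myh4 were Coq5 of ubiquinone synthesis at 0.986, Ucp1, the uncoupling protein of brown fat, at 0.983, and Samm50 of the mitochondrial outer membrane at 0.977. Myh3 was most like Usp47 (0.980), Mef2d, a muscle transcription factor (0.978), and Ccn2 (0.975). Myh7 was most like Kcnh2, a heart potassium channel (0.977), Myl3 (0.975) and the slow and cardiac troponin Tnnc1 (0.969). Between members the correlation ranged from 0.159 for Myh2 with Myh3 to 0.980 for Myh1 with Myh8.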

How the data were processed

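Per the labels' protocols, biotin-labelled total RNA was hybridized to Affymetrix GeneChips. The authors deposited 1 linear intensity per probe set for 45101 probe sets on 8 arrays. The sources used here do not state their summarization or scaling. Of these, 34945 probe sets named 1 gene in the platform annotation and 34741 were matched by Entrez ID to the RefSeq gene table. Values were taken as log2(intensity + 16), quantile normalized, with 1 probe set per gene (highest mean). Genes under the 40th percentile of probe sets (log2 level 4.94) were left out, and 13592 were tested with limma 3.58.1 (R 4.3.3; 4 residual degrees of freedom, 6.85 after moderation). The procedure was tested on simulated data.

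The members and lists were chosen with earlier results of these data known. Genes named are the members, for each member the 3 nearest by correlation, and of each list up to 4 with the smallest p; other genes named were chosen after their values were seen. Ratios of isoforms were tested by exact permutation. Alternatives were the constant, normalization, filter, probe set, array weights, groups fitted, replicate block and arrays left out.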

Additional observations from a re-analysis of the deposited data

Results flagged for a closer look

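The probe set 1448554_s_at, which names both Myh7 and Myh6 and so belonged to no gene of the comparisons, was higher on all 6 nicotine arrays than on both saline arrays, as were 16.8% of all genes tested. Its intensity was 374.9 and 208 in saline palates, 529.8 and 3189 at 1.5, 799.8 and 586 at 3.0, and 642 and 827 at 4.5 mg/kg/day. The log2 of the mean nicotine over the mean saline intensity was 1.91, and 1.22 without nicotine 1.5 replicate 2, the highest array. The other probe set that names both genes, 1448827_s_at, was near background, at 1.63 and 4.27 in saline palates, 3.82 and 83.0 at 1.5, 18.6 and 13.1 at 3.0, and 13.5 and 28.8 at 4.5, and there the nicotine and saline arrays overlapped.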

How the results depend on the processing

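Of 650 refits of the members' fold changes and slopes, 620 kept their direction and their side of the threshold, 17 passed it and 13 turned sign; of 756 for the genes of the other lists 579 kept both, 134 were lost, 40 passed and 3 turned sign. Myh4 at 3.0 mg/kg/day against saline passed at 1.37 with arrays centred on their medians (adjusted p = 0.0493), with the filter at the 60th percentile (0.0481), with array weights (0.0348), with 2 groups only (0.0407) and with all probe sets fitted separately (0.0440), each making 1 member called. With the mean of a gene's probe sets, which for Myh4 brings in a probe set at background in saline palates, Myh4 passed at 1.05 at 3.0, 0.83 at 4.5 and 0.75 for the mean of the doses, 1 member called in each; Myh4 over Myh8 had a slope of 0.133 (exact permutation p = 0.0230) and Tpm3 was at 0.20. Without the 2 arrays highest in liver genes Myh1 was at -0.20 at 1.5, Myh3 at -0.14 at 3.0, Myh2 at -0.25 at 4.5 and -0.29 for the mean of the doses, Tnnt2 at -0.032, and the slope of Myh8 over Myh3 was 0.031. The second Myh1 probe set, added after seeing the data, gave -0.082 at 1.5.

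With 1 array left out at a time, the lone array of a group being assumed to vary like the others, 0 to 1 members were called at each dose and 0 to 2 for the mean of the doses. In the mean of the doses Myh1 ranged from 0.26 to 1.44, Myh2 from -0.089 to 0.83, Myh3 from 0.11 to 1.13, Myh4 from 0.72 to 0.93, Myh7 from 0.77 to 1.77 and Myh14 from -1.32 to 0.039. At 1.5 Myh2 ranged from -0.65 to 0.56 and Myh3 from 0.30 to 1.32; at 3.0 Myh1 from 0.55 to 1.74, Myh3 from -0.14 to 0.88 and Myh4 from 1.29 to 1.45; at 4.5 Myh2 from -0.27 to 0.69 and Myh3 from 0.18 to 1.20. Slopes over dose ranged from -0.0036 to 0.15 for Myh3, -0.033 to 0.22 for Myh7, -0.065 to 0.033 for Myh8 over Myh3, -0.015 to 0.14 for Myh2 over Myh8, 0.106 to 0.219 for Myh4 over Myh8, -0.031 to 0.092 for Myh7 over Myh3 and -0.062 to 0.13 for Myh7 over Myh8. Single settings that turned the sign inside these ranges were Myh2 at 0.41 at 1.5 and -0.25 at 4.5, and slopes of 0.0027 for Myh8 over Myh3, -0.0011 for Myh2 over Myh8 and -0.029 for Myh7 over Myh3. The cause of these shifts was not tested. Over all genes the calls ranged from 15 to 960 at 1.5, 50 to 1046 at 3.0, 152 to 1839 at 4.5, 349 to 2603 for the mean of the doses and 0 to 808 for the slope. Same-numbered arrays did not deviate together across all groups, with correlations from -0.221 to 0.334 over 6 pairs of groups. The highest was that of saline and nicotine 1.5, whose replicates 2 were the 2 arrays highest in liver genes. The numbers were not taken as pairs. With a replicate block 0 of 6 members were called, and Myh4 at 3.0 had a limma adjusted p of 0.0853. For the mean of the doses 844 genes in place of 1380 were then called. With 2 arrays per group, the number of arrays limits the precision, and Myh4 lies close to background.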
